A study of Rattus rattus with 23 samples.

Results

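The genes of mitochondrial respiratory complexes I, II, III and V were followed in nasal respiratory epithelium of rats that had inhaled hydrogen sulfide (H2S) or air. Members were taken by gene symbol: those starting with Ndufa, Ndufb, Ndufc, Ndufs or Ndufv (complex I), with Sdha, Sdhb, Sdhc or Sdhd (complex II), with Uqcr (complex III) or with Atp5 (complex V). The rule found 73 genes, 42 of complex I, 8 of complex II, 7 of complex III and 16 of complex V, among 14218 genes that had a probe set with a single symbol. Of these, 72 had enough signal to be tested, among 11237 tested genes. The exception was Ndufb8, a complex I accessory subunit, whose log2 signal averaged 5.81. Each gene was represented by the probe set with the highest mean signal. A further 5 probe sets that share symbols with near-identical genes, among them those of Ndufa10, Ndufs5 and Uqcrb, were not used.

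Complex I takes electrons from NADH, and complex II takes them from succinate in the citric acid cycle. Both pass them to ubiquinone, complex III carries them on to cytochrome c, and complex V makes ATP from the proton gradient that complexes I and III help to build. H2S is known to inhibit cytochrome c oxidase (complex IV), which is not among the members, and sulfide oxidation in mitochondria delivers electrons to ubiquinone. Ciliated cells of airway epithelium are rich in mitochondria, which supply ATP for ciliary beating. The rule is one of names, so the symbols also took in assembly factors (Ndufaf, Sdhaf), Ndufa4, which is now counted with complex IV, its homolog Ndufa4l2, and Atp5if1, the inhibitor of ATP hydrolysis by complex V. Cyc1, a core subunit of complex III, and the subunits encoded by mitochondrial DNA lie outside the rule.

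The animals were male Sprague-Dawley rats, whose age is given as 60 days in the sample labels and 10 weeks in the design. They inhaled 200 ppm H2S or air through the nose only, for 3 h a day. A single exposure was followed by sampling at 3 h (n = 4), 6 h (n = 3) and 24 h (n = 4) after its start, and 5 daily exposures by sampling at 144 h (n = 4). Samples from air-breathing controls exist for 24 h (n = 4) and 144 h (n = 4). The groups at 3 h and 6 h therefore differ from their air animals in time as well as exposure. Laser capture took epithelium where injury and regeneration occur, the RNA was amplified in 2 rounds, and each of the 23 animals had an Affymetrix Rat230_2 array of its own. The treatment labels of animals 6, 14 and 18 speak of 5 days although their titles name single-exposure groups, and the titles were followed here.

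The captured tissue carried the markers of respiratory epithelium: Foxj1 and Tekt1 (ciliated cells), Krt5 (basal cells) and Muc5b (secretory cells) lay above the array median on all 23 arrays. Omp (olfactory neurons) did so on 3 arrays, and Ckm and Acta1 (skeletal muscle) on 5 and 3. Markers of blood were present too, with Hbb (red cells) above the array median on all 23 arrays and Ptprc (leukocytes) on 22. Among those tested, 3 of 12 leukocyte and 1 of 2 red cell markers lay above it on all arrays. Other tissue was present as well. Of the tested markers, 3 of 6 for stroma and vessel and 2 of 5 for cartilage and bone lay above the median on all arrays. So did 1 of 9 olfactory and 1 of 9 skeletal muscle markers, against 10 of 13 ciliated, 8 of 9 basal and 6 of 10 secretory ones. Arrays of animals 18 (air, 24 h) and 22 (air, 144 h) stood apart, with median correlations of 0.408 and 0.685 with the other arrays, against 0.82 to 0.9 for the other 21. Their array medians were 341 and 265, against 136 to 208. Signals of the hybridization controls were 135 and 29.6 times those of the median array, against 0.52 to 1.88 on the others. The RNA of animal 18 had an integrity number of 2.6 and that of animal 22 one of 6.9. Why these 2 arrays differ was not tested. Animal 21 (air, 144 h) had a skeletal muscle marker level of 3.53, against -2.41 to -0.24 in the other 22 animals. Animal 18 had an olfactory marker level of 1.04, against -2.21 to -0.18 in the other 22. In this bulk tissue, fewer cells of a type and less RNA per cell cannot be told apart.

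No member changed by the test used, in any of the 8 comparisons. The test was limma on log2(signal + 16) with Benjamini-Hochberg adjustment over 19822 probe sets and a threshold of 0.05. Few genes of any kind passed it. Probe sets called made up 0.0807% at 3 h against air, 0.00504% at 6 h against air, 0.0101% at 24 h against air and 0% at 144 h against air. They made up 0.00504% for 6 h against 3 h of H2S, 0.0101% for 24 h against 6 h of H2S, 0% for air at 144 h against air at 24 h, and 0% for the exposure effect at 144 h minus that at 24 h. The counts of 0 members are therefore near the background, and what follows describes sizes, with their errors. The smallest adjusted p of a member was 0.608 at 24 h and 0.6 at 144 h against air. At an unadjusted p under 0.05, 5 of 72 members (6.94%) passed at 24 h against air, against 8.41% of all genes tested. At 144 h 4 members passed (5.56%), against 8.37% of all genes, and 0 passed at 3 h and at 6 h, against 9.72% and 5.56% of all genes.

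For complexes I, II and V, though not III, the animals of a group differed less than for the median gene. The SD within groups had a median of 0.466 (log2) over the 72 members, against 0.672 over all 11237 genes. It was lowest for Ndufa12, an accessory subunit of complex I, at 0.227, and highest for Ndufa4l2 at 1.1. The log2 signal of Ndufa4l2 averaged 6.55 and exceeded the array median only in animals 13, 18, 21 and 22. Without the arrays of animals 18 and 22 this gene would not pass the signal filter. A median SD of 0.405 was found for complex I, 0.472 for complex II, 0.677 for complex III and 0.497 for complex V. Other mitochondrial genes also lay below the median gene, so the low spread is not particular to the members. Their median SD was 0.475 for mitochondrial ribosomal proteins, 0.48 for the citric acid cycle and 0.587 for complex IV. At 24 h against air, the 95% interval of the change reached 0.748 to either side for the median member. For 30 of 72 members the whole interval lay between -1 and 1, so a change of 2-fold or more lay outside it, and for the other 42 it did not.

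The level of a complex in an animal is given as the mean log2 signal of its tested members minus the mean of all genes tested on that array. Differences between groups can be read from it, but not differences between complexes, whose probes are not comparable. Complex I averaged 1.33 ± 0.146 at 3 h (SD, n = 4), 1.19 ± 0.138 at 6 h (n = 3), 1.59 ± 0.0998 at 24 h (n = 4) and 1.36 ± 0.121 at 144 h (n = 4) of H2S, against 1.47 ± 0.125 in air at 24 h and 1.42 ± 0.297 in air at 144 h (n = 4 each). Complex II averaged 1.05 ± 0.155, 1.10 ± 0.196, 1.33 ± 0.238 and 1.19 ± 0.163 at the same 4 times of H2S, against 1.24 ± 0.186 and 1.23 ± 0.266 in air. Complex III averaged 2.66 ± 0.129, 2.61 ± 0.174, 2.95 ± 0.121 and 2.66 ± 0.0449, against 2.87 ± 0.189 and 2.74 ± 0.33 in air. Complex V averaged 2.50 ± 0.108, 2.50 ± 0.285, 2.84 ± 0.11 and 2.57 ± 0.191, against 2.44 ± 0.455 and 2.42 ± 0.244 in air. In all 4 complexes the group mean was highest 24 h after H2S, and its range overlapped with that of air at 24 h in each complex.

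**Figure D1:**
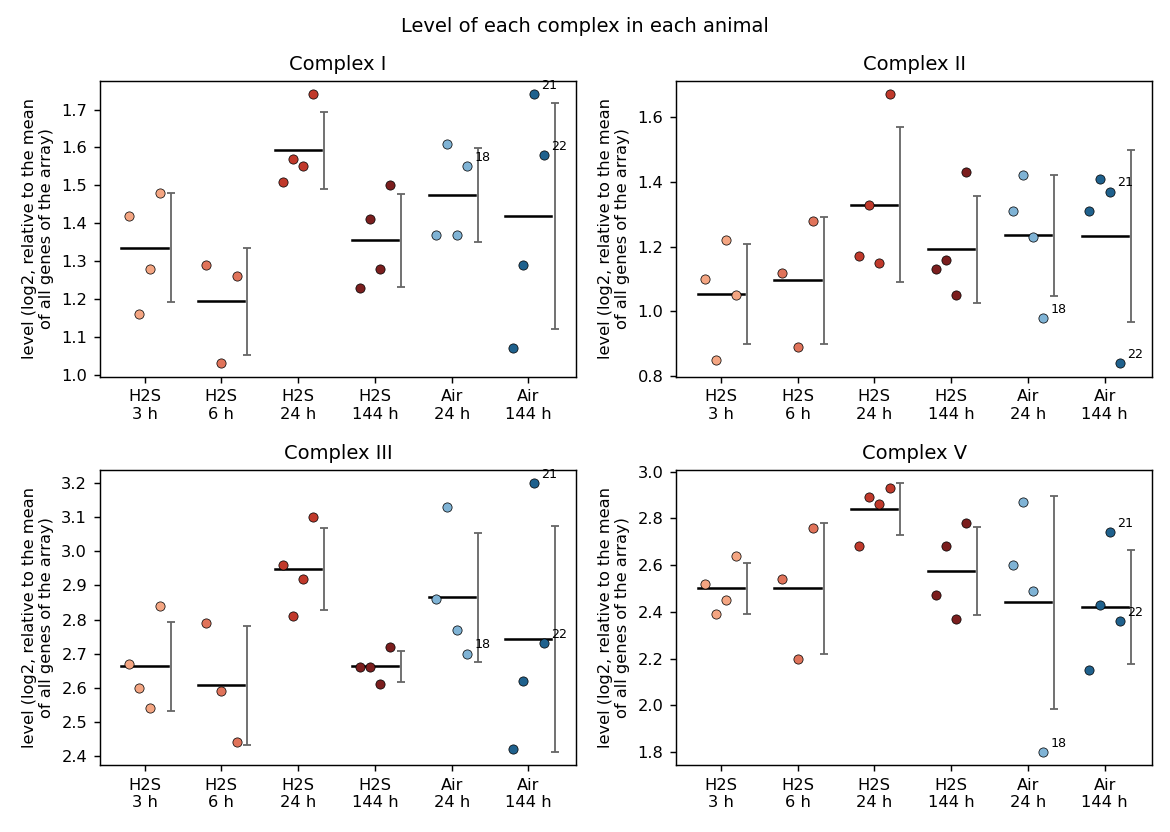
Level of complexes I, II, III and V in each animal (y axis, log2, mean of the tested members minus the mean of all genes tested on the array) for the 6 groups (x axis). Points are animals, black lines group means, grey bars ± 1 SD, and animals 18, 21 and 22 are numbered. The mean of each complex is highest at 24 h of H2S, and animal 18 has the lowest complex V level, 1.80.

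The comparison of 24 h with 6 h after H2S holds no air animal, and no air group exists for 6 h. A response to H2S and an effect of sampling time therefore cannot be told apart in it. Nearly all members leaned 1 way in this comparison. Higher means at 24 h than at 6 h were found for 39 of 41 complex I genes, 7 of 8 complex II genes, 6 of 7 complex III genes and 15 of 16 complex V genes, or 67 of 72 (93.1%), against 52.6% of all genes tested. The median changes were 0.45, 0.33, 0.47 and 0.42 (log2), against 0.03 for all genes. At an unadjusted p under 0.05, 4 of 72 members passed (5.56%), against 3.55% of all genes, and the adjusted p in limma was 1 for each. The level of all 72 members was 1.87, 1.96, 1.93 and 2.13 in the 4 animals at 24 h, against 1.69, 1.43 and 1.71 in the 3 animals at 6 h. The 2 groups do not overlap in this level, and animal 9 at 6 h lies furthest down. The 4 animals at 3 h, at 1.54 to 1.82, also lay below those at 24 h, and the 4 at 144 h, at 1.63 to 1.90, overlapped with them, and neither of these groups was compared with 24 h in the fit.

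Single members make up this level on the same arrays, so their separation, given next, is no added support for it. Members of an animal share its array, so counts of members are not counts of separate observations. For 14 of 72 members (19.4%) every animal at 24 h lay above every animal at 6 h, against 4.34% of all genes tested. For 0 members every animal at 24 h lay below, against 2.9% of all genes. The 14 were 9 of complex I (Ndufa3, Ndufa12, Ndufab1, Ndufb1, Ndufb2, Ndufb4, Ndufb5, Ndufb11, Ndufc1), 2 of complex III (Uqcr11, Uqcrh) and 3 of complex V (Atp5me, Atp5mf, Atp5po). All 9 of complex I are accessory subunits, outside the catalytic core, the role of 27 of the 41 complex I members tested, and a difference by role was not tested. Several of these 14, and others named for this step, were chosen after their values were seen.

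Ndufa3, a small accessory subunit of complex I, had log2 signals of 11.65, 11.16, 11.84 and 11.69 at 24 h, against 10.97, 10.76 and 10.81 at 6 h. The change was 0.73 (SE 0.28, unadjusted p 0.0156 in limma), and no animals overlapped. Ndufb2, an accessory subunit of the membrane arm, had 12.11, 12.14, 12.32 and 12.43 at 24 h, against 11.40, 11.87 and 11.53 at 6 h, a change of 0.65 (SE 0.385). Its lowest animal at 24 h lay 0.24 above the highest at 6 h.

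Uqcr11, a small subunit of complex III, had 13.23, 12.61, 12.94 and 13.04 at 24 h, against 12.02, 12.51 and 11.89 at 6 h, a change of 0.82 (SE 0.387). Uqcrh, the hinge protein that helps complex III meet cytochrome c, had 14.14, 14.29, 14.08 and 14.18 at 24 h, against 13.89, 13.86 and 13.35 at 6 h. Atp5po, which joins the head of complex V to its side stalk, had 11.75, 11.50, 11.65 and 12.07 at 24 h, against 11.25, 11.19 and 11.06 at 6 h, a change of 0.58 (SE 0.305). In each of the 3 genes the 4 animals at 24 h sat above the 3 at 6 h. The second, much dimmer probe sets of Atp5po and Atp5me gave -0.21 and -0.32 for this step, and that of Atp5me was below the signal filter.

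All 6 core subunits of complex I had higher means at 24 h, while of the subunits of complexes II and III, Sdhc and Uqcrfs1 did not. Ndufs1, an iron-sulfur subunit of the complex I core, had the largest core change, 0.92 (SE 0.389), with 10.16, 10.74, 10.77 and 11.10 at 24 h against 10.35, 8.98 and 9.99 at 6 h. Its groups overlap, and animal 9 is far below the rest. The 6 core members of complex I differed by 0.01 (Ndufv1) to 0.92 and the 27 accessory members by 0.02 (Ndufa5) to 1.10 (Ndufv3), all of them above 0. The 5 members of the complex V head differed by 0.22 (Atp5f1c) to 0.45 (Atp5f1d), the 6 of its membrane part by 0.22 (Atp5mg) to 0.66 (Atp5me) and the 4 of its side stalk by 0.16 (Atp5pf) to 0.65 (Atp5pd). Lower means at 24 h were found for Uqcrfs1, the Rieske iron-sulfur protein (-0.13), for the inhibitor Atp5if1 (-0.12), for Sdhc, a membrane anchor of complex II (-0.03), and for the assembly factor Ndufaf4 (-0.01). The assembly factor Ndufaf5 lay just below 0, at 0.00 after rounding.

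Animal 9 carried part of the step in complex V. Without it the median change of complex V relative to all genes was 0.11, against 0.39 with it, that of complex II was 0.14 against 0.30, and that of all members was 0.24 against 0.39. Complexes I and III stood at 0.37 and 0.48 without it. Without animal 14, which has a 5-day label, 63 of 72 members were higher at 24 h, and without animal 9 likewise 63. The share of members with no overlap was 22.2% to 36.1% with an animal left out, against 5.54% to 12.1% of all genes, which also have fewer animals to separate.

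Other mitochondrial genes stood on the same side of this step, and a difference between them and the members was not tested. Higher means at 24 h than at 6 h were found for 12 of 14 complex IV genes (median 0.34), 13 of 14 citric acid cycle genes (0.33) and 62 of 73 mitochondrial ribosomal protein genes (0.29), with 0 called in each. The complex IV list was also taken by symbol, and its lower entries were Cox6c-ps1 (-0.89), a pseudogene by its symbol, and Cox6a2 (-0.30). Of 15 genes that drive mitochondrial biogenesis, 6 were higher, with a median of -0.04. Tfam, which packages mitochondrial DNA and takes part in starting its transcription, differed by -0.02. Ppargc1a, a coactivator of mitochondrial genes, differed by 0.23. Ciliated cell markers differed in the same direction. Their level averaged 1.07 ± 1.07 at 24 h (SD, n = 4) and 0.10 ± 0.763 at 6 h (n = 3), and all 13 had higher means at 24 h. Ciliated levels overlapped, at 0.95, 1.88, -0.40 and 1.85 at 24 h, against 0.49, 0.59 and -0.78 at 6 h. All 10 secretory markers were also higher, and their level did not overlap, at 1.57 to 3.03 at 24 h against 0.46 to 1.53 at 6 h. The level of the 2 red cell markers did not overlap either, at -1.81 to -1.22 at 24 h against -0.86 to -0.41 at 6 h. Animal 9, lowest in the members, had the highest leukocyte level of these 7 animals, 1.51, and the highest stroma and vessel level, 3.16. The part of these cell types in the members' step was not tested. RNA integrity numbers were 5.5, 4.2, 2.6 and 10 at 24 h, against 5.8 and 6.4 in the 2 animals at 6 h that have one. With this number as a covariate the median of all members relative to all genes was 0.26, against 0.24 without it on the same 19 arrays.

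**Figure D2:**
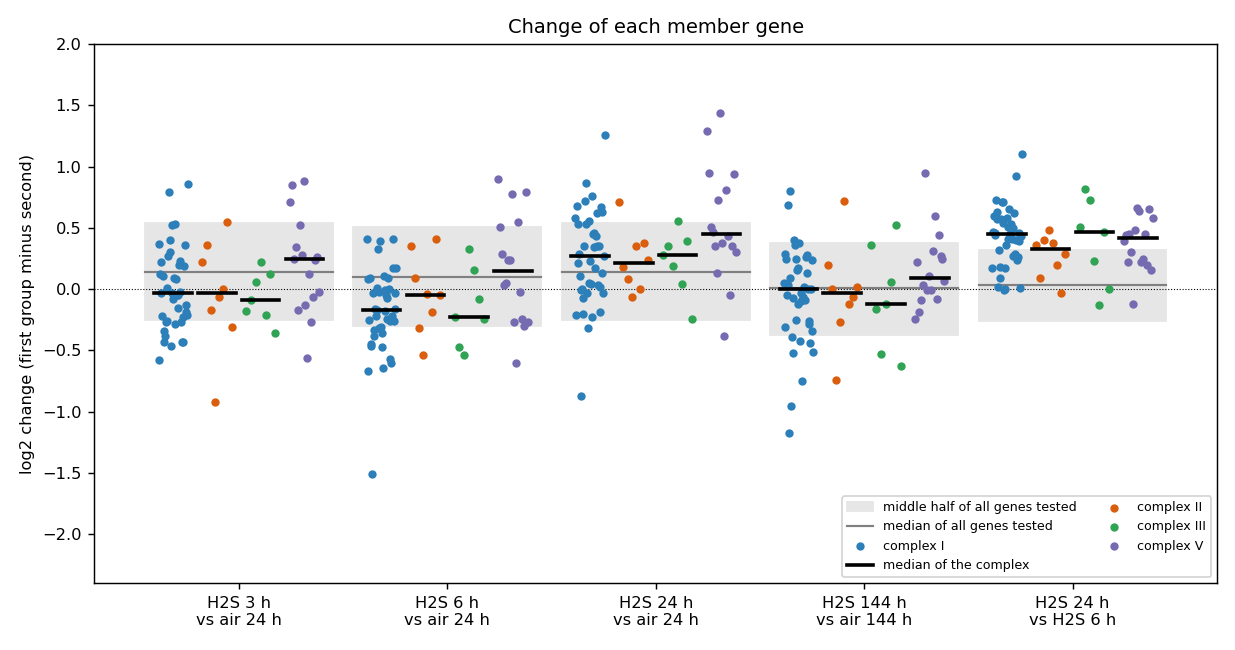
Log2 change of each of the 72 tested members (points, coloured by complex) in 5 comparisons (x axis), with the median of each complex (black lines), the median of all genes tested (grey line) and their interquartile range (grey box). At 24 h against 6 h of H2S the medians of the complexes, 0.33 to 0.47, lie above the grey line at 0.03, while at 144 h against air they lie between -0.12 and 0.09.

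Against air at 24 h, the members leaned higher 24 h after a single exposure. Much of the size came from a single air array, that of animal 18. Higher means were found for 30 of 41 complex I genes, 7 of 8 complex II, 6 of 7 complex III and 14 of 16 complex V genes, 57 of 72 (79.2%) in all, against 59.5% of all genes. The medians were 0.27, 0.21, 0.28 and 0.45, and 0.34 over all members, against 0.14 for all genes. Without animal 18, 57 of 72 members were again higher, but the medians were 0.15, 0.10, 0.02 and 0.22, and 0.15 over all members, against 0.02 for all genes. Quantile normalization gave 46 of 72 members higher (63.9%), against 63.3% of all genes, and put the members at -0.10 relative to all genes. Centring each array on its median gave 69 of 72 (95.8%), against 75.9% of all genes.

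The largest changes at 24 h were in genes in which animal 18 lay far below the other air animals. Atp5me, a subunit of the membrane part of complex V, had 11.56, 10.75, 11.31 and 11.26 after H2S, against 10.91, 10.92, 11.06 and 6.22 in air. Atp5f1a, the alpha subunit of its head, had 11.46, 11.91, 12.35 and 11.88 after H2S, against 11.81, 11.80, 11.57 and 7.27 in air. In both genes 3 of the air animals overlap with the exposed ones, and animal 18 sits more than 4 units below. The change was 1.44 (SE 0.687) for Atp5me and 1.29 (SE 0.683) for Atp5f1a, and without animal 18 it was 0.25 (SE 0.299) and 0.17 (SE 0.372).

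Ndufv3, an accessory subunit beside the NADH site of complex I, had 11.11, 9.80, 10.69 and 10.79 after H2S, against 10.51, 10.53, 10.43 and 5.87 in air. Its change of 1.26 (SE 0.706) was 0.11 (SE 0.386) without animal 18. Uqcrc2, a core subunit of complex III, had 12.17, 12.29, 12.35 and 12.24 after H2S, against 12.50, 12.42, 12.44 and 9.46 in air, and its change of 0.56 became -0.19. Animal 18 lay more than 1 unit below the median of the other air animals in 23 of 72 members and more than 1 above in 8, so its members did not move as a block. A second probe set of Ndufv3 and of Uqcrc2, both below the signal filter, gave -0.33 and -0.89.

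In 2 of 72 members (2.78%), Ndufa12 and Ndufs7, every exposed animal lay above every air animal, a share close to the 2.76% of all genes, and 0 members lay wholly below, against 1.26%. Ndufa12, an accessory subunit of complex I, had 11.52, 11.91, 11.66 and 11.82 after H2S, against 11.25, 11.04, 11.18 and 10.70 in air. The change was 0.68 (SE 0.257, unadjusted p 0.0147 in limma), and 0.57 (SE 0.236) without animal 18. Ndufs7, a core subunit beside the ubiquinone site, had 10.65, 11.08, 11.38 and 11.10 after H2S, against 10.34, 10.63, 10.53 and 10.19 in air, a change of 0.63 (SE 0.343), and 0.55 without animal 18.

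The other members with an unadjusted p under 0.05 at 24 h were Ndufab1, the mitochondrial acyl carrier protein (0.72, SE 0.331), Ndufb2 (0.76, SE 0.357) and Atp5mk, a small membrane subunit of complex V (0.81, SE 0.378). Without animal 18 they stood at 0.41, 0.40 and 0.35. Sdha, the flavoprotein of complex II that oxidises succinate, had 12.05, 12.12, 12.69 and 12.57 after H2S, against 12.31, 11.95, 12.33 and 10.00 in air, and its change of 0.71 (SE 0.454) was 0.16 without animal 18. Sdhb, its iron-sulfur partner, differed by 0.00 (SE 0.387), Sdhc by 0.38 (SE 0.362) and Sdhd by 0.24 (SE 0.338), and without animal 18 by 0.20, 0.01 and 0.11. The core complex III subunits Uqcrc1 and Uqcrfs1 differed by 0.19 (SE 0.486) and 0.04 (SE 0.472), and without animal 18 by 0.50 and -0.11. The lowest changes were those of Ndufa4l2 (-0.87, SE 0.714) and of Atp5mg, a membrane subunit of complex V (-0.38, SE 0.372). Ndufa4l2, a gene induced by low oxygen in other settings, lay below the array median on most arrays. Animal 18 was high in both genes, and without it their changes stood at -0.21 and -0.07.

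**Figure D3:**
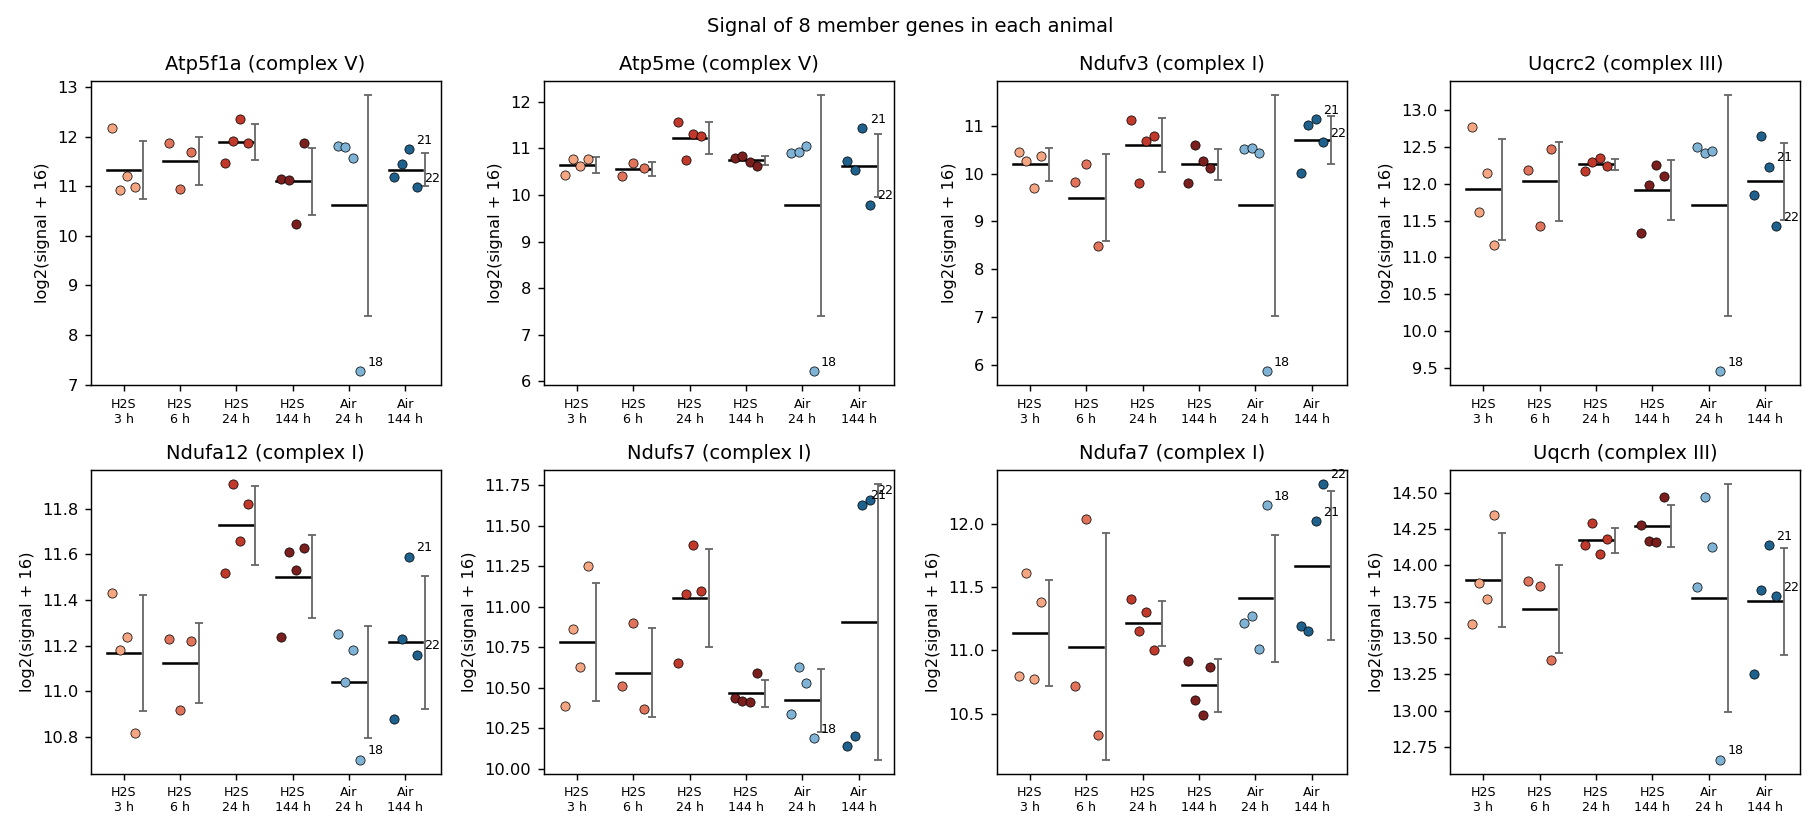
Log2(signal + 16) of Atp5f1a, Atp5me, Ndufv3, Uqcrc2, Ndufa12, Ndufs7, Ndufa7 and Uqcrh (8 panels) in each animal of the 6 groups (x axis). Points are animals, black lines group means, grey bars ± 1 SD, and animals 18, 21 and 22 are numbered. Animal 18 lies at 7.27, 6.22, 5.87 and 9.46 in the first 4 genes, far below the other air animals of 24 h.

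After 5 daily exposures the members stood near their air animals of 144 h. Higher means were found for 19 of 41 complex I genes, 3 of 8 complex II, 3 of 7 complex III and 10 of 16 complex V genes, 35 of 72 (48.6%) in all, against 50.7% of all genes. The medians were 0.00, -0.03, -0.12 and 0.09, against 0.01 for all genes. Centring each array on its median turned the count to 61 of 72 (84.7%), against 73.5% of all genes, and quantile normalization to 31 of 72 (43.1%), against 55.1%. The level of all members was 1.63, 1.79, 1.63 and 1.90 after H2S, against 1.47, 1.69, 2.06 and 1.78 in air.

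Animal 21, with the muscle markers, had the highest member level of its air group, and 56 of its 72 members lay above their own median over the 23 animals. In it 14 of 72 members lay more than 1 above the median of the other 3 air animals and 0 more than 1 below. Without animal 21, 50 of 72 members were higher after H2S (69.4%), against 51.9% of all genes, and the medians were 0.11, 0.10, 0.04 and 0.30, against 0.03 for all genes. Without animals 18, 21 and 22, 47 of 71 members were higher (66.2%) and the median of all members was 0.20, against 0.02 for all genes, with 0 called. Of the 12 skeletal muscle markers, 2 are complex IV genes (Cox6a2, Cox7a1) and none is a member. Ciliated markers were higher in 12 of 13 and averaged 2.13 ± 0.698 after H2S and 1.25 ± 1.24 in air (SD, n = 4 each), and their part was not tested. RNA integrity numbers were 4.8, 5.1, 4.5 and 1.7 after H2S, against 5.6, 6.4, 5.1 and 6.9 in air, and with this number as a covariate the median of all members relative to all genes was -0.01, against -0.02 without it on the same 19 arrays.

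At 144 h, 1 of 72 members (1.39%) had every exposed animal above every air animal, against 3.13% of all genes, and 1 (1.39%) every exposed animal below, against 3.31%. Both shares lie below the background. The higher was Uqcrh, with 14.28, 14.17, 14.16 and 14.47 after H2S, against 13.25, 13.83, 14.14 and 13.79 in air, a change of 0.52 (SE 0.333). The lower was Ndufa7, an accessory subunit of complex I, with 10.92, 10.61, 10.49 and 10.87 after H2S, against 11.19, 11.15, 12.02 and 12.32 in air. Its change was -0.95 (SE 0.374, unadjusted p 0.0192 in limma), and -0.45 (SE 0.369) without animals 18, 21 and 22. A second, dimmer probe set of Ndufa7 gave -0.26.

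Ndufb4, an accessory subunit of the membrane arm, had 11.13, 11.30, 11.35 and 11.47 after H2S, against 11.39, 12.10, 12.36 and 12.41 in air, a change of -0.75 (SE 0.3). Of the air animals, only animal 19 falls within the exposed range. Ndufa4 had 11.30, 11.66, 11.48 and 12.06 after H2S, against 10.38, 11.38, 11.38 and 10.60 in air, a change of 0.69 (SE 0.298) with a slight overlap. Ndufa5, an accessory subunit of the arm that reaches into the matrix, had 9.07, 8.91, 8.51 and 9.04 after H2S, against 6.31, 8.34, 9.41 and 8.28 in air, with animal 19 far below the rest. Its change was 0.80 (SE 0.445) and rested on animal 19, without which it was 0.20 (SE 0.352). Without animals 18, 21 and 22, which leaves animals 19 and 20 as the air group, it was 1.56 (SE 0.424, adjusted p = 0.193 in limma).

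Atp5if1 had 12.12, 12.30, 10.82 and 12.23 after H2S, against 10.79, 11.24, 10.59 and 11.04 in air. Of its exposed animals, 3 lie above all air animals and animal 25 among them. The change was 0.95 (SE 0.385), but the 2 other probe sets of Atp5if1 gave -0.51 and 0.13. Of the complex II assembly factors, Sdhaf2, which helps attach the flavin to Sdha, differed by -0.74 (SE 0.365), and by -0.37 (SE 0.333) without animal 22, which was high. Sdhaf4, which helps Sdha meet Sdhb, differed by 0.72 (SE 0.361), and by 0.55 without animal 22, Sdhaf1 by 0.00 and Sdhaf3 by -0.27. The 4 subunits of complex II differed by -0.12 (Sdhb) to 0.20 (Sdha), and Sdha by -0.12 without animal 22.

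At 3 h against air at 24 h, 35 of 72 members had higher means (48.6%), against 59.3% of all genes, with medians of -0.03, -0.03, -0.09 and 0.25 for complexes I, II, III and V, against 0.14 for all genes. At 6 h the count was 26 of 72 (36.1%), against 57.1%, with medians of -0.17, -0.05, -0.23 and 0.15, against 0.10. These 2 comparisons and that at 24 h share their air animals. Without animals 18 and 22 the counts were 19 of 71 at 3 h (26.8%), against 51.5% of all genes, and 13 of 71 at 6 h (18.3%), against 48.1%. Complex V then stood at -0.19 at 3 h and -0.22 at 6 h, on the other side of 0 from its medians with all animals. Median centring gave 51 of 72 members higher at 3 h (70.8%), against 70.8% of all genes, and 50 of 72 at 6 h (69.4%), against 72.8%. Quantile normalization gave 26 of 72 (36.1%) at 3 h, against 61.1%, and 23 of 72 (31.9%) at 6 h, against 60.5%.

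At 6 h, 2 of 72 members (2.78%), Ndufa3 and Ndufb11, had every exposed animal below every air animal, against 1.88% of all genes, and 0 had every exposed animal above, against 2.51%. Ndufb11, an accessory subunit of the membrane arm, had 10.76, 10.21 and 10.75 at 6 h, against 11.07, 11.55, 10.86 and 11.37 in air at 24 h, a change of -0.64 (SE 0.316). Ndufa3 had 10.97, 10.76 and 10.81, against 11.22, 11.01, 11.31 and 11.63, a change of -0.45 (SE 0.28). In both genes the gap between the groups is at most 0.10.

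Among other members at 3 h, Sdhaf3, which protects the iron-sulfur clusters of Sdhb, averaged 7.45 ± 0.508 after H2S (SD, n = 4), with a highest animal of 8.15, against 8.86, 9.10, 8.74 and 6.79 in air, a change of -0.92 (SE 0.51). The exposed animals lie below 3 of the air animals and above animal 18. Ndufaf1, which assembles the membrane arm of complex I, had 7.86, 6.98, 8.07 and 7.37, against 7.16, 7.59, 6.72 and 5.65, a change of 0.79 (SE 0.446). Without animal 18 the changes were -1.45 for Sdhaf3 and 0.41 for Ndufaf1. Sdhc differed by 0.55 (SE 0.362) at 3 h and 0.41 (SE 0.39) at 6 h, and without animal 18 by 0.18 and 0.04. Ndufa4l2 lay below the array median in every animal at 3 h and 6 h of H2S. This dim gene differed by -0.43 (SE 0.714) at 3 h and -1.51 (SE 0.772) at 6 h, and without animal 18 by 0.23 and -0.85.

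From 3 h to 6 h of H2S the members differed little, with 26 of 72 higher at 6 h (36.1%), against 46.3% of all genes, and a median of -0.10, against -0.04. In air, 41 of 72 were higher at 144 h than at 24 h (56.9%), against 57.7%, with a median of 0.05, against 0.10. The exposure effect at 144 h minus that at 24 h was above 0 in 16 of 72 members (22.2%), against 42.1% of all genes, with a median of -0.32, against -0.14. The median stood at -0.14 without animal 18, -0.21 without animals 18 and 22, and -0.03 without animals 18, 21 and 22, where 35 of 71 members (49.3%) were above 0, against 51% of all genes. The smallest adjusted p of a member for this difference was 0.946. Ndufb4 had the smallest unadjusted p, 0.0169, at -1.10 (SE 0.424).

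Beside the members, Sqor oxidises sulfide and hands its electrons to ubiquinone. It differed by 1.46 at 24 h against air (adjusted p = 0.575 in limma) and 1.24 at 3 h (adjusted p = 0.433). At 144 h against air Sqor differed by 0.60 (adjusted p = 0.785). Cyc1 differed by 0.76 at 24 h (adjusted p = 0.612). The changes at 3 h and 24 h were taken against the air group that holds animal 18. In animal 18 the electron carrier and transport level was 0.61, against 1.51 to 1.81 in the other air animals of 24 h. In air alone, Sqor was 0.95 and Cyc1 0.45 higher at 144 h than at 24 h. How much of the changes of Sqor and Cyc1 rests on animal 18 is not given here. Of the 14 electron carrier and transport genes, 13 were higher at 24 h against air (median 0.66) and 9 at 144 h (0.24). Of 14 complex IV genes, 11 were higher at 24 h (median 0.29) and 7 at 144 h (-0.04). For the citric acid cycle the counts were 13 of 14 (0.44) and 8 of 14 (0.05), and for mitochondrial ribosomal proteins 62 of 73 (0.47) and 38 of 73 (0.06). None of these genes passed the threshold in either direction. Without animal 18 the medians at 24 h were 0.33 for the carriers (13 of 14 higher), 0.21 for complex IV (10 of 13), 0.15 for the citric acid cycle (11 of 14) and 0.23 for the ribosomal proteins (62 of 73).

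Animals differed in how many of the 72 members lay above the member's own median over all 23 arrays, on the level relative to the array. The counts were 35, 18, 20 and 38 at 3 h, 25, 14 and 35 at 6 h, 44, 52, 50 and 58 at 24 h, and 22, 40, 18 and 43 at 144 h of H2S. In air they were 30, 59, 25 and 38 at 24 h and 13, 27, 56 and 32 at 144 h. At 24 h of H2S a majority of members lay above their median in each animal, while the air groups held both the highest count, 59 in animal 16, and the lowest, 13 in animal 19.

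**Figure D4:**
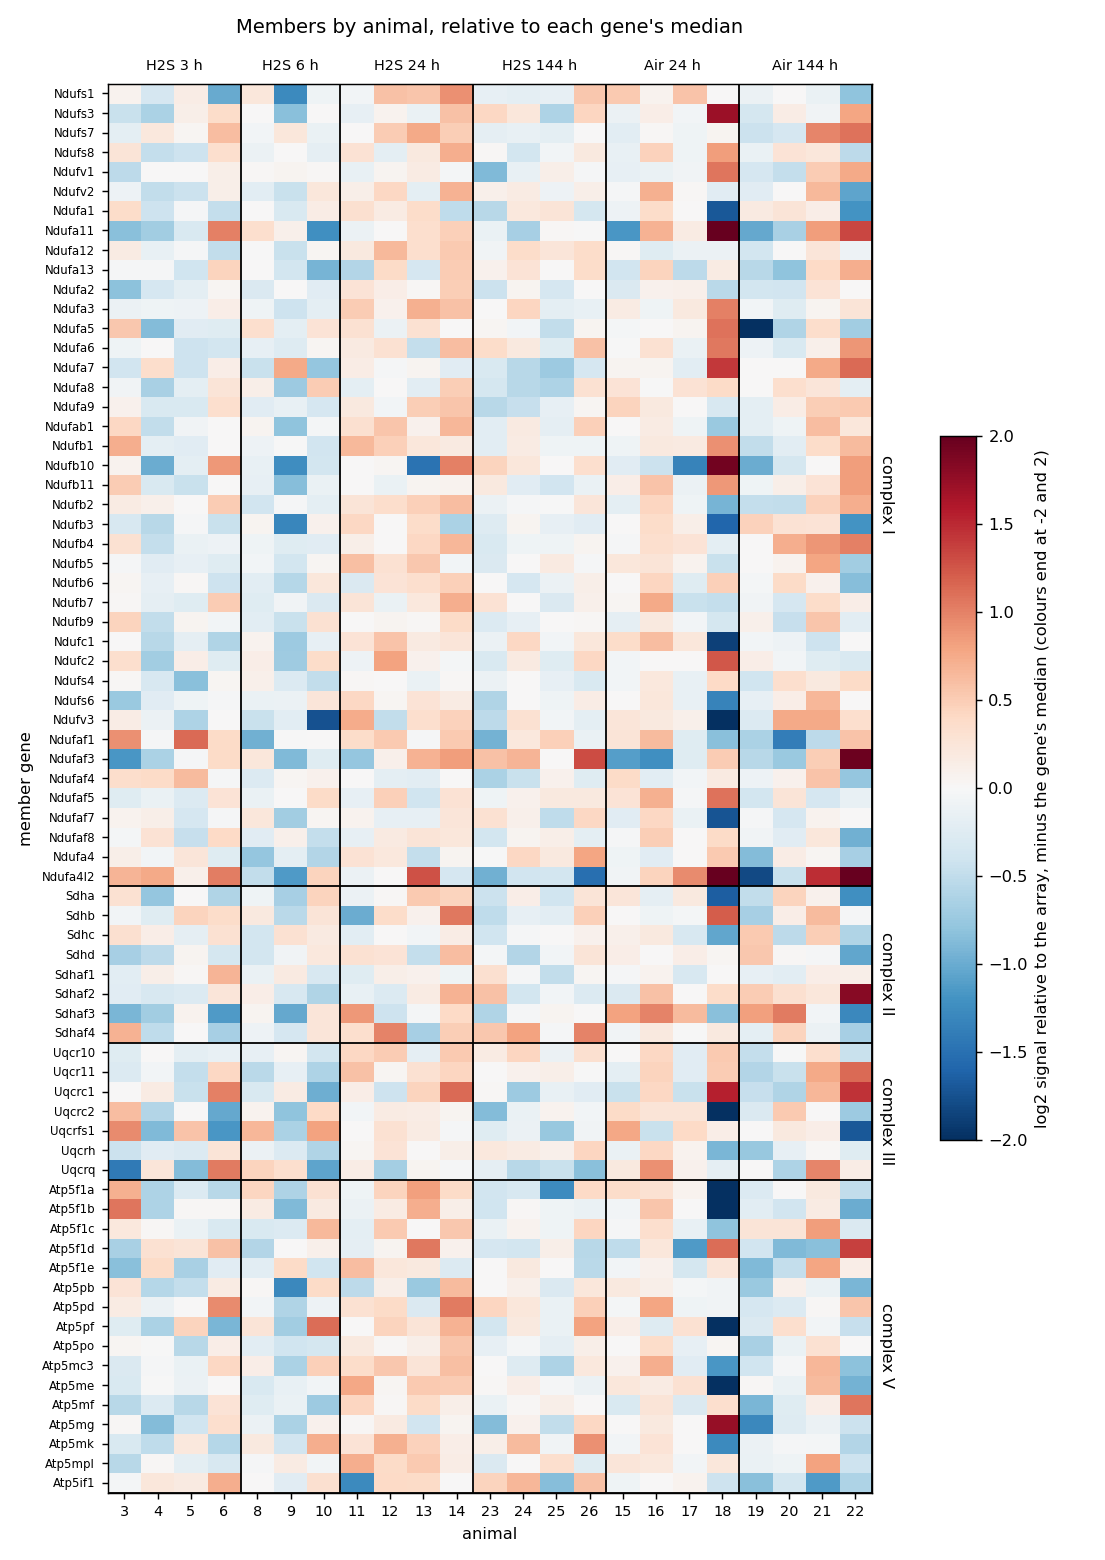
Level of each of the 72 members (rows, grouped by complex) in each of the 23 animals (columns, grouped by exposure and time), as log2 signal relative to the array minus the gene's own median, with red above and blue below and colours ending at -2 and 2. Columns 11 to 14 (H2S, 24 h) are mostly red, and column 18 (air, 24 h) holds both the deepest red and the deepest blue.

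**Figure D5:**
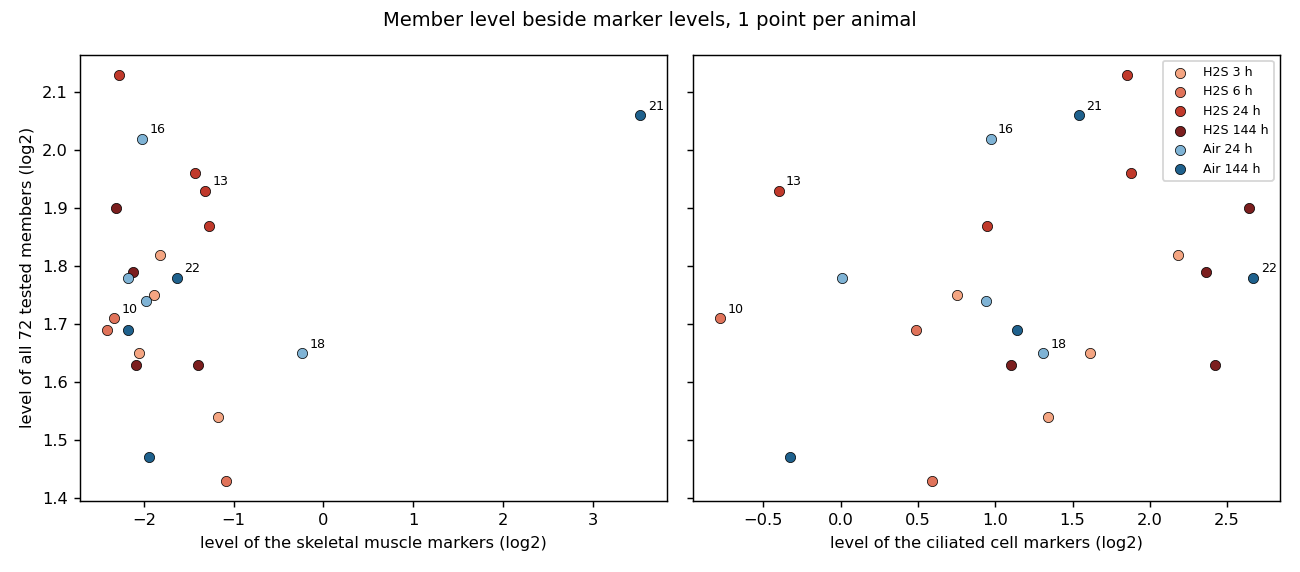
Level of all 72 members (y axis, log2 relative to the array) against the level of the skeletal muscle markers (left) and of the ciliated cell markers (right) in each of the 23 animals, coloured by group. Animal 21 stands alone at a muscle level of 3.53 with a member level of 2.06, and the 4 animals at 24 h of H2S have member levels of 1.87 to 2.13 at ciliated levels from -0.40 to 1.88.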

How the data were processed

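The deposited values are intensity on a linear scale, 1 value per probe set and array. The submitters' processing notes name GCOS 1.0, without settings. After trimming 2% from both ends, array means were 500.1 to 500.2, so no further scaling was applied. From these, log2(intensity + 16) was computed, which understates changes of dim genes. Control probe sets (57) were left out, and 19822 of 31099 probe sets above their own array's median on at least 3 arrays were tested. limma 3.58.1 in R 4.3.3 fitted 1 mean per group over all 23 arrays (eBayes, two-sided), a script checked on simulated data. Symbols came from the platform's annotation. No batch is named in the labels used here. The number of arrays limits precision. Named genes were core subunits, members with the smallest p per complex, extremes of signal, and members without overlap or with disagreeing probe sets; others, among them those named for 24 h against 6 h, were added after their values were seen. Members and lists were chosen with earlier results of these data known. Alternatives were other pseudocounts, scalings, filters, variance options, probe set means, RNA integrity settings and animals left out. Promoter and protein sequences were not used here.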

Additional observations from a re-analysis of the deposited data

Results flagged for a closer look

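In groups of 4 animals, a value was singled out when its gap to the nearest other animal exceeded Dixon's 95% critical share of the group's range. Of 210 groups tested, 17 held such a value. Chance alone does so in about 1 of 20 separate groups, but that share is no yardstick here. The screen did not take in every member, its genes were partly chosen for extreme values, and genes of an animal share its array. Animal 18 gave 7 of them and animal 22 gave 4, the 2 arrays that stand apart. In animal 18 (air, 24 h) these were the log2 signals of Atp5f1a (7.27), Atp5me (6.22), Ndufv3 (5.87), Sdha (10.00), Sdhaf3 (6.79) and Uqcrc2 (9.46), all below the other 3 air animals, and of Sdhb (10.70), above theirs of 9.88 to 9.93. In animal 22 (air, 144 h) they were Ndufa1 (13.66), Ndufs1 (9.34) and Uqcrfs1 (9.21), below the others, and Sdhaf2 (12.85), above them. The other 6 came from 6 animals: Atp5if1 low in animal 25 (10.82) and Ndufs1 high in animal 26 (10.70) at 144 h of H2S, Ndufb11 low in animal 12 (10.80) and Uqcr10 low in animal 13 (11.43) at 24 h of H2S, and Ndufb8 low in animal 5 (4.73) and Sdhaf2 high in animal 6 (11.32) at 3 h of H2S.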

How the results depend on the processing

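No alternative turned a member into a call: 0 members passed in 197 alternative values, and the smallest adjusted p in limma was 0.266 at 24 h, 0.193 at 144 h, 0.134 at 3 h and 0.394 at 6 h against air, 0.132 for 6 h against 3 h, 0.205 for 24 h against 6 h, 0.376 in air and 0.723 for the difference between exposure effects. Of 7241 alternative changes of named genes, 79 moved by more than the replicate SD. Of 1017 medians of a complex relative to all genes, 977 moved by less than that SD and 40 by more, and of the plain medians 89 of 1017 moved by more. The cause was not tested. At 24 h against air, quantile normalization moved complex I to -0.10 (0.13 as reported) and complex III to -0.26 (0.14). At 3 h it moved complex I to -0.37 (-0.16), complex III to -0.51 (-0.22) and complex V to -0.19 (0.11). It moved complex III to -0.67 at 6 h (-0.34), to -0.37 in air at 144 h against 24 h (-0.11) and to 0.00 for the difference between exposure effects (-0.26). Complex V at 3 h stood at -0.16 with array weights, -0.20 without RNA integrity numbers under 3, -0.20 without animals 18 and 22, -0.20 without animals 18, 21 and 22, and -0.26 without animals 6, 14 and 18. Leaving out animals 18, 21 and 22, a choice made after seeing the data, moved complexes I, III and V at 144 h to 0.20, 0.28 and 0.35 (-0.01, -0.13 and 0.08). It moved complexes III and V in air to -0.38 and -0.42 (-0.11 and -0.03), and their difference between exposure effects to 0.19 and 0.11 (-0.26 and -0.31). That of complex III was 0.03 without RNA integrity numbers under 3 and 0.05 without animals 6, 14 and 18. With RNA integrity as a covariate, complex II stood at 0.19 for 6 h against 3 h (-0.02) and complex V at 0.12 for 24 h against 6 h (0.39), against 0.11 on the same 19 arrays with no covariate. With each animal left out in turn, the ranges were -0.19 to 0.09 for complex III at 144 h, -0.20 to 0.25 for complex V at 3 h, -0.45 to -0.15 for complex III at 6 h, -0.23 to 0.03 for complex III at 6 h against 3 h, 0.11 to 0.50 for complex V at 24 h against 6 h and -0.22 to 0.15 for complex II in air. For the difference between exposure effects they were -0.36 to -0.04 for complex II and -0.49 to 0.06 for complex III. No paired analysis was possible because each animal has its own number. Groups of 3 or 4 arrays, RNA amplified in 2 rounds and air animals at 24 h and 144 h only limit what can be told apart.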
